A study of Mus musculus with 6 samples.

Results

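Chemokine ligands and their receptors accounted for 39 of the 17831 genes in the count table, 23 ligands and 16 receptors. They were chosen by symbol alone: a ligand prefix (Ccl, Cxcl, Xcl or Cx3cl) or a receptor prefix (Ccr, Cxcr, Xcr, Cx3cr or Ackr) followed by a number. Of the 39 genes, 28 passed a filter on low counts (17 ligands and 11 receptors) and were tested, and 11 had too few reads. Other members of the family, among them Ackr3 and Cxcr2, had no column under these symbols in the count table and were not analysed here.

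Chemokines are small secreted proteins that guide migrating cells along a gradient. Their receptors cross the membrane repeatedly and couple to inhibitory G proteins, which lead to polarization of the cytoskeleton and movement, while atypical receptors of the Ackr group take up ligand without that signal. In the lung, group 2 innate lymphoid cells (ILC2s), lymphocytes that lack antigen receptors and secrete IL-5 and IL-13, use chemokine receptors to enter and position themselves in tissue, and they release chemokines that attract other leukocytes.

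RNA was measured in 3 libraries from WT mice (CB57BL/6 in the labels) and 3 from SIRPα KO mice (SIRPalphatm1Ynliu/J), which carry a germline knockout of an inhibitory receptor for CD47. Mice of both genotypes were 6 to 8 weeks old, received 0.5 μg of rmIL-33 into the nose on 3 days, and their lung ILC2s were sorted on day 4 as CD45+, lineage-negative, CD127+ and ST2+ cells. Cells of both groups were then kept in rmIL-2 plus rmIL-7, for 18 h by one statement of the study and 24 h by another. The knockout is in every cell of the mouse, so the ILC2s also came from a SIRPα KO lung. The cDNA of each library was amplified from 10 pg of RNA.

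The libraries held 13980491 to 19051504 reads on genes. Sirpa itself had 149, 96 and 73 reads in WT replicates 1, 2 and 3 and 48, 85 and 28 reads in SIRPα KO replicates 1, 2 and 3, a log2 fold change of -1.12 (edgeR, Benjamini-Hochberg adjusted p = 0.115). After scaling, the groups did not overlap for Sirpa, and counts per gene do not show whether those reads came from the deleted part. All 12 ILC2 markers examined passed the filter, and Il5 and Gata3 were abundant in every library. At an adjusted p under 0.05 from edgeR, 3 of the 12 rose (Il5, Il2ra and Ptprc) and 2 fell (Id2 and Thy1). Thy1 had 211, 184 and 348 reads in the WT libraries and 57, 72 and 67 in the SIRPα KO libraries. In the labels, WT replicates 1 and 2 have related codes (37 and 37V1). The same is true of replicates 2 and 3 of SIRPα KO (44 and 44V1). The design text of the series speaks of duplicates, which may mean 2 biological samples per group, although 3 libraries per group are listed. Whether libraries of related code came from separate mice is not stated, so p-values measure the spread between these libraries, which may be technical. Across 13623 tested genes, the adjusted p was under 0.05 for 11.7% (5.94% higher and 5.81% lower in SIRPα KO), and the groups did not overlap for 42.8%.

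Among the ligands, most RNA of the sorted and cultured cells was of Cxcl3, a CXC chemokine that attracts neutrophils. It supplied 80.7% to 89.4% of all ligand reads in each library, and which of the sorted cells held it was not tested. Levels are given as CPM, counts per 1000000 reads of the TMM-scaled library, and between genes as CPM per kilobase of the longest transcript. Cxcl3 stood at 200 ± 37.5 CPM per kb (SD, n = 6). Ccl6, a CC chemokine of myeloid cells, followed at 35.3 ± 12.2 CPM per kb. The ranges of these genes over the 6 libraries overlapped neither each other nor those of the ligands next in order. Ccl5 (9.55 ± 7.17 CPM per kb), Cxcl2 (8.19 ± 2.71), Ccl21b (5.26 ± 7.87) and Ccl3 (4.98 ± 3.37) came next. From Ccl5 downward, each ligand overlapped the next one in level, so no order among them is given.

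Cxcl3 lies on chromosome 5 of mm10 from 90786103 to 90789600, within 147 kb of Cxcl5, Cxcl1 and Cxcl2. These neighbours are related CXC ligands that attract neutrophils, yet their levels differed widely. Cxcl2 was at 8.57 to 22.7 CPM, Cxcl5 at 0.46 to 4.30 CPM, and Cxcl1 did not pass the filter with 2 to 27 reads, whereas Cxcl3 was at 595 to 913 CPM. Counts were fractional in 5 of the libraries for Cxcl3 and in 1 for Cxcl2, and how such reads were assigned is not given. The 250 bases before the start sites of Cxcl3 (chr5:90785851-90786100), Cxcl2 (chr5:90903649-90903898) and Cxcl1 (chr5:90890995-90891244), all on the plus strand of GRCm38.p6 in RefSeq, are shown because close relatives side by side had such unequal levels. Capitals mark matches, on either strand, to a TATA box (TATAAA), an NF-κB pattern (GGG, any 5 bases, CC) or an AP-1 pattern (TGANTCA), and overlapping matches run together.
Cxcl3: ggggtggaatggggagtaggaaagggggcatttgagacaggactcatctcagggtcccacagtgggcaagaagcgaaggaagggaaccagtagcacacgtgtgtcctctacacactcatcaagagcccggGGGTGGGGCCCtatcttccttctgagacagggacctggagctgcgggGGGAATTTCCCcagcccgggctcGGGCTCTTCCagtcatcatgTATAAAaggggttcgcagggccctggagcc
Cxcl2: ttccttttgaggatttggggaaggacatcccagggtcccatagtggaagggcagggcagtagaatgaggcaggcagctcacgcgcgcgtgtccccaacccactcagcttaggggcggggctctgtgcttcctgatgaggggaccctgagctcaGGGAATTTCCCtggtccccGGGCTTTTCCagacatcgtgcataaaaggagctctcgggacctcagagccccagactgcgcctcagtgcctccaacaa
Cxcl1: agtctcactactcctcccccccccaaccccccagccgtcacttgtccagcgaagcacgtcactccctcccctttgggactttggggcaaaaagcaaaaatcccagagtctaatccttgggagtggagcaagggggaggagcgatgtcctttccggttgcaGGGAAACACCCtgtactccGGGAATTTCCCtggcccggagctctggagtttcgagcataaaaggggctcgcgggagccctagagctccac
The longest run of letters shared by all 3 promoters was GGGAATTTCCC, 11 bases long. It began 73 bases before the start of Cxcl3, 97 before that of Cxcl2 and 71 before that of Cxcl1, so the high and the low gene both held it. An exact TATAAA match was found for Cxcl3 alone of these genes, beginning 30 bases before its start. The sequences of Cxcl2 and Cxcl1 hold the similar cataaa, which this strict pattern does not count. The NF-κB pattern is loose: 45.8% of 32817 RefSeq windows of this length held it, as did 16 of the 32 windows of the 28 chemokine genes with an entry. TATAAA was in 12.4% of all windows and 7 of these 32, and the AP-1 pattern in 6.75% and 5 of 32.

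**Figure D1:**
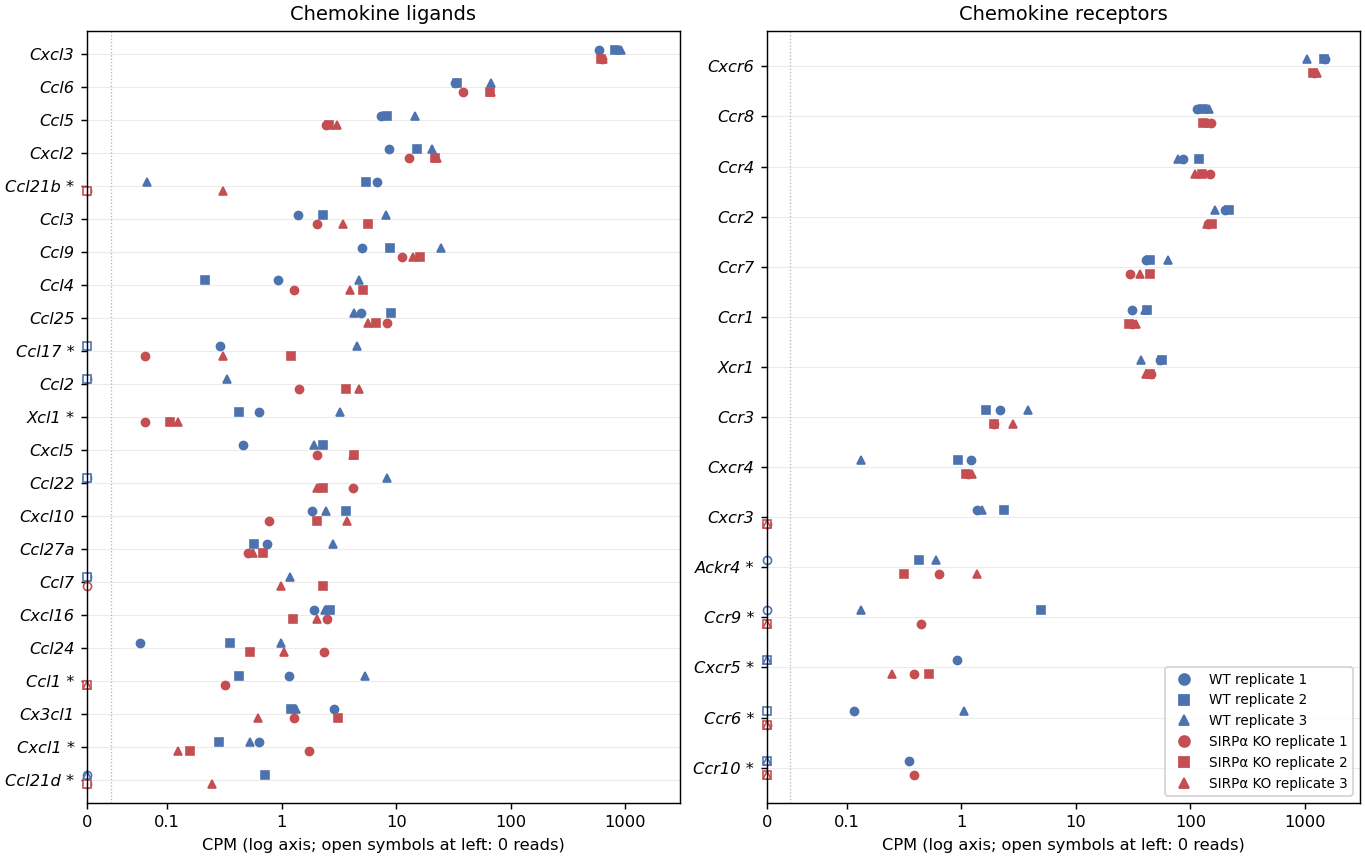
CPM of the chemokine ligands (left) and of 15 receptors (right) in each library on a log axis, ordered by mean CPM per kb, with WT in blue, SIRPα KO in red, open symbols at the left edge for 0 reads (several may lie on each other) and asterisks for genes that did not pass the filter. Cxcl3 (595 to 913 CPM) and Cxcr6 (1049 to 1500 CPM) stand far to the right of the other genes, and Cxcr3 has reads in WT libraries alone.

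Cxcl3 had 595, 812 and 913 CPM in WT replicates 1, 2 and 3 and 622, 611 and 643 CPM in SIRPα KO replicates 1, 2 and 3. WT replicate 1 was below every SIRPα KO library and the other WT libraries were above, so the groups overlapped. The log2 fold change was -0.31 (standard error 0.15), and the adjusted p from edgeR was 0.208. It was past the threshold without WT replicate 1 (-0.46, adjusted p = 0.0426 from edgeR). Cxcl2, at 8.57, 15.2 and 20.4 CPM in WT and 13.0, 21.7 and 22.7 CPM in SIRPα KO, also overlapped (log2 fold change 0.38 ± 0.35). Cxcl5, an epithelial and myeloid ligand of the same group, had a log2 fold change of 1.19 ± 0.63, with WT replicate 1 the lowest at 0.46 CPM.

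Of the 17 tested ligands, 1 rose and 1 fell. These 2 genes, 11.8% of the 17, stand beside 11.7% of all genes. The median log2 fold change of the 17 was 0.10, against -0.03 over all genes tested, and the groups did not overlap for 2 of them (11.8%), against 42.8% of all genes. Of the 11 tested receptors, 1 fell and none rose, their median was -0.17, and 2 did not overlap (18.2%). At an unadjusted p under 0.05 in the edgeR test there were 2 ligands and 4 receptors. Ccl2 and Cxcr3 are in all of these counts, and each passed the filter only through the group where it was high. The share of members past the threshold was thus near that of the table as a whole, and the share without overlap was below it. An average of at least 3 log2 CPM was reached by 4 of the 17 ligands and 8 of the 11 receptors, against 9146 of 13623 genes. The shares without overlap thus do not compare genes of like level, and no steadiness of chemokine genes is read from them.

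Ccl5 (RANTES), a ligand of Ccr1 and Ccr3 made by activated T cells and NK cells, fell. It is on the minus strand of chromosome 11 from 83525778 to 83530518. Its level was 7.30, 8.25 and 14.7 CPM in the WT libraries and 2.43, 2.57 and 3.04 CPM in the SIRPα KO libraries. The groups did not overlap, on 38 to 49 reads against 116 to 222. Ccl5 thus fell by 1.91 on the log2 scale (standard error 0.35, edgeR adjusted p = 0.0203). Ccl5 has a short transcript of 668 bases, and the fold changes of the whole table followed transcript length: among well-expressed genes the median was -0.55 for the decile of shortest transcripts and 0.47 for that of longest. With transcript length and GC content corrected for, Ccl5 stood at -1.22 on the log2 scale (standard error 0.25, adjusted p = 0.0269 from edgeR).

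Cxcr3, the receptor for Cxcl9, Cxcl10 and Cxcl11 and a mark of type 1 lymphocytes, had reads in WT alone. It had 24, 33 and 23 reads in the WT libraries (1.38, 2.35 and 1.52 CPM) and 0 in each SIRPα KO library. Cxcr3 lies on the X chromosome from 101731535 to 101734269. Its adjusted p from edgeR was 0.0158, and DESeq2, which leaves out genes with low counts, gave it no adjusted p (unadjusted p = 7.83e-07). Against a floor of 3 counts in each SIRPα KO library, Cxcr3 was at least 9.81-fold lower in SIRPα KO. That floor covers counting error only. Cxcr3 passed the filter through its WT reads alone. The log2 fold change of its ligand Cxcl10 was -0.27 ± 0.61, with 32, 51 and 37 reads in WT and 12, 39 and 60 in SIRPα KO, so the groups overlapped.

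Markers of lymphocytes outside the ILC2 gate, B cell markers among them, were also lower in SIRPα KO, as Ccl5 and Cxcr3 were. Such a split between the groups, in either direction, was seen for 42.8% of all genes tested. The summed level of 5 NK cell markers was 13.9 to 25.3 CPM in WT and 1.73 to 3.73 CPM in SIRPα KO, and 3 of the 5 fell past the threshold: Eomes, Klrb1c and Gzma. Eomes, a transcription factor of NK cells and cytotoxic T cells, had 70, 41 and 51 reads in WT and 5, 0 and 0 in SIRPα KO. The 5 T cell markers with a column summed to 18 to 23.5 CPM in WT and 4.77 to 5.56 CPM in SIRPα KO. That sum was mostly Cd3g, with 230 to 326 reads in WT and 56 to 60 in SIRPα KO, while Cd3e, at 6 to 42 and 14 to 26 reads, overlapped. Cd4 was at 0 in 5 of the 6 libraries. Antibodies to CD3ε, CD4 and CD335 were part of the lineage gate. In bulk RNA, fewer cells of a type and less RNA per cell cannot be told apart, and the part of these cells in the fall of Ccl5 and Cxcr3 was not tested.

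Ccl2 (MCP-1), the main ligand of Ccr2 and an attractant of monocytes, rose from almost no reads. It had 0, 0 and 5 reads in the WT libraries and 22, 69 and 77 in the SIRPα KO libraries, or 1.41, 3.62 and 4.78 CPM in SIRPα KO. The groups did not overlap, and WT replicate 3 held all WT reads. Ccl2 passed the filter through its SIRPα KO reads alone. Ccl2 rose by 4.82 on the log2 scale (standard error 1.14, edgeR adjusted p = 0.0369), and without WT replicate 3, where WT had no reads left, the fit gave 8.76, which is no bound. Its neighbour on chromosome 11, Ccl7, another ligand of Ccr2, had 0, 0 and 18 reads in WT and 0, 44 and 16 in SIRPα KO, and its groups overlapped (log2 fold change 1.47 ± 1.66). Of the macrophage or monocyte markers, Itgam rose (8 to 56 reads in WT, 146 to 214 in SIRPα KO) and Ly6c2 fell (12 to 24 reads in WT, 0 in each SIRPα KO library). Fcgr1 had 0 reads in each WT library and 6 to 12 in SIRPα KO. Antibodies to CD11b, the protein of Itgam, and to CD11c and Gr1 were in the lineage gate. The part of myeloid cells in the rise of Ccl2 was not tested.

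The calls of Ccl2, Ccl5 and Cxcr3 each needed all 3 SIRPα KO libraries. Without SIRPα KO replicate 1, 2 or 3 the adjusted p from edgeR was 0.116, 0.149 and 0.140 for Ccl2, 0.116, 0.120 and 0.0917 for Ccl5, and 0.0969, 0.0991 and 0.0806 for Cxcr3. The direction stayed the same for all of these genes. With libraries of related code summed, which leaves 2 against 2, it was 0.183 for Ccl2 and 0.130 for both Ccl5 and Cxcr3. Ccl2 was also not past the threshold without WT replicate 1 (0.0625) or WT replicate 2 (0.0529).

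**Figure D2:**
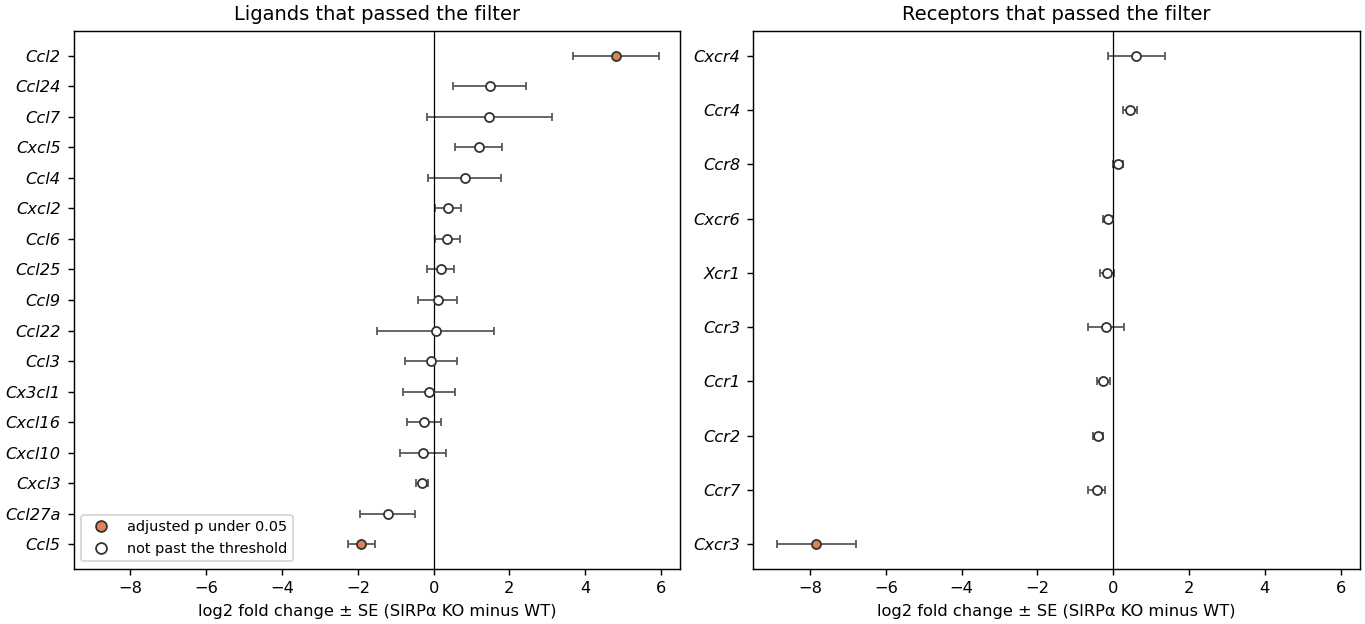
Log2 fold change of SIRPα KO over WT with its standard error for the 17 ligands (left) and 10 of the 11 receptors (right) that passed the filter, with filled points for an adjusted p under 0.05 from edgeR. Ccl2 (4.82), Ccl5 (-1.91) and Cxcr3 (-7.83) are the filled points, and the fitted value of Cxcr3 rests on 0 reads in SIRPα KO and is no bound.

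Ccl6, Ccl9 and Ccl3, inflammatory CC ligands that are neighbours on chromosome 11, varied between libraries of one genotype more than between genotypes. Ccl6, on the minus strand from 83587882 to 83593087, had 32.6, 34.0 and 67.0 CPM in WT and 38.2, 66.6 and 66.7 CPM in SIRPα KO (log2 fold change 0.36 ± 0.33, adjusted p = 0.480 from edgeR). WT replicate 3 lay with SIRPα KO replicates 2 and 3, and WT replicates 1 and 2 with SIRPα KO replicate 1. Ccl9, from 83572919 to 83578636, had 5.06, 8.82 and 24.6 CPM in WT and 11.2, 16.1 and 14 CPM in SIRPα KO (0.10 ± 0.52). For Ccl3 (MIP-1α), a ligand of Ccr1, the levels were 1.38, 2.28 and 8.08 CPM in WT and 2.05, 5.72 and 3.41 CPM in SIRPα KO (-0.06 ± 0.69). Ccl4 (MIP-1β), a close relative of Ccl3, had a log2 fold change of 0.82 ± 0.96. For all 4 genes, WT replicate 3 was the highest WT library and SIRPα KO replicate 1 the lowest SIRPα KO library.

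The 10 macrophage or monocyte markers summed to 46.7, 47.2 and 132 CPM in WT and 81.1, 122 and 109 CPM in SIRPα KO, and WT replicate 3 and SIRPα KO replicates 2 and 3 were highest there too. Among these markers, Marco had 98 reads in WT replicate 3 and 0 in WT replicates 1 and 2. Lyz2, which carried most of the sum in WT replicate 3, had 1240 reads there against 367 and 321 in the other WT libraries. Other markers of the list were lowest in WT replicate 3 among WT libraries: Csf1r had 113, 61 and 49 reads, Cd14 had 25, 20 and 3, and Ly6c2 had 24, 17 and 12. CD11b, CD11c and Gr1, which such cells carry, were in the lineage gate of the sort, and the part of these cells in the levels of Ccl6, Ccl9 and Ccl3 was not tested. Neutrophil markers were near 0, with at most 23 reads for any of the 3 with a column.

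**Figure D3:**
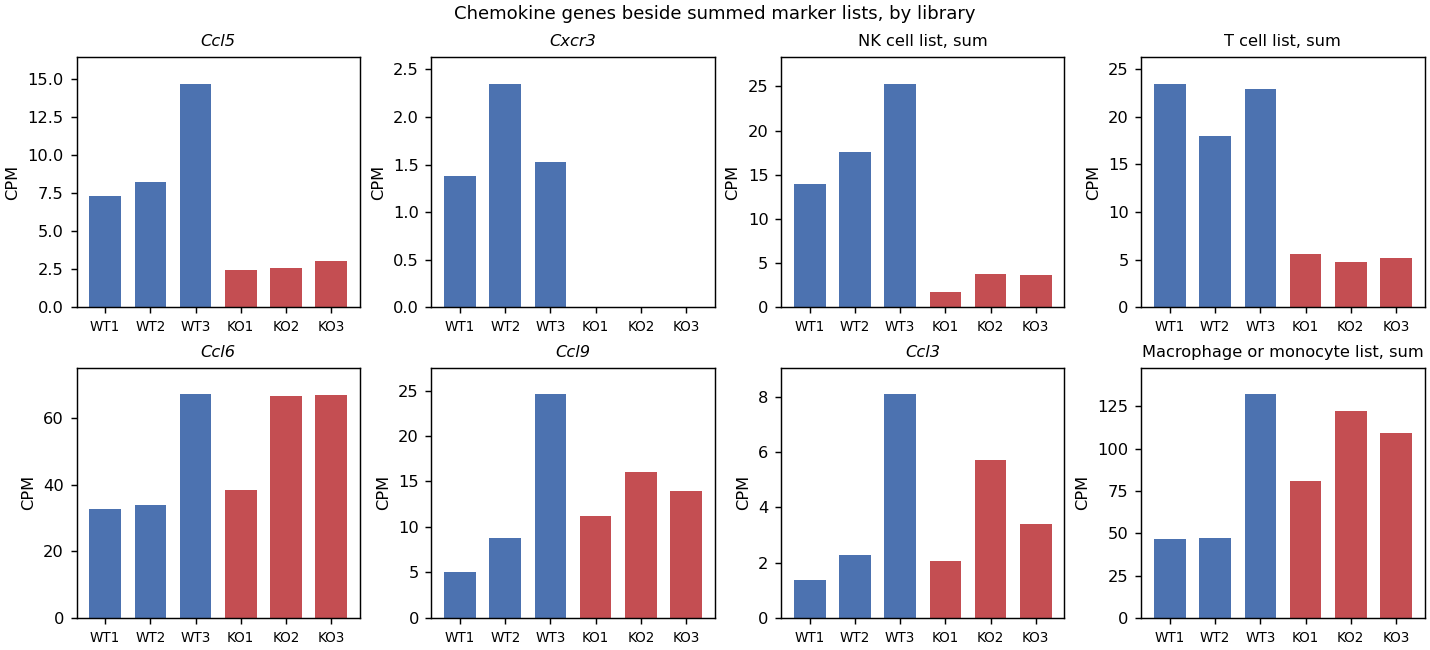
CPM by library (WT in blue, SIRPα KO in red, bars from 0) of Ccl5 and Cxcr3 beside the summed NK cell and T cell markers (top row), and of Ccl6, Ccl9 and Ccl3 beside the summed macrophage or monocyte markers (bottom row). In the top row every WT bar is above every SIRPα KO bar, and in the bottom row WT replicate 3 is the highest WT bar of each panel. Among WT bars of the top row, Ccl5 and the NK cell sum are highest in replicate 3, Cxcr3 in replicate 2 and the T cell sum in replicate 1.

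The promoters of Ccl6 (chr11:83593088-83593337) and Ccl9 (chr11:83578637-83578886), minus strand of GRCm38.p6 in RefSeq, are shown because these neighbours were high and low in the same WT libraries. They are written in the direction of the gene, with matches to the same 3 patterns in capitals.
Ccl6: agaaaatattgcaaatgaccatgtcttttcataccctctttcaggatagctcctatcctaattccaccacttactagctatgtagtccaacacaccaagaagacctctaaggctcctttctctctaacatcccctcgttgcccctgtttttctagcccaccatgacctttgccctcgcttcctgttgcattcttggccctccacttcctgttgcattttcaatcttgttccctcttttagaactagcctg
Ccl9: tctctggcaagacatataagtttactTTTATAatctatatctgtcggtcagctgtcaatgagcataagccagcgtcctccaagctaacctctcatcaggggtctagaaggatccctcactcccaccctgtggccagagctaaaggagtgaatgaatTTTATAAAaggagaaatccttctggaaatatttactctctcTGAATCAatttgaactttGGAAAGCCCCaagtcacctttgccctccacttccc
Ccl9 held 3 matches to TATAAA, 1 to the NF-κB pattern and 1 to the AP-1 pattern, and Ccl6 held none of the 3 patterns in this window.

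The other tested ligands were low and their groups overlapped. Ccl22, a ligand of Ccr4 made by dendritic cells and macrophages, had 0, 0 and 125 reads in WT and 66, 44 and 33 in SIRPα KO. The fold change of Ccl22 was 0.05 ± 1.53 (log2) with all libraries and 8.56 without WT replicate 3 (adjusted p = 0.00735 from edgeR). That second value is no bound, since WT was then at 0 reads, and WT replicate 3 alone decided the result. Ccl24 (eotaxin-2), which attracts eosinophils through Ccr3, had 1 to 15 reads in WT and 10 to 37 in SIRPα KO (1.48 ± 0.96). Cxcl16, the transmembrane ligand of Cxcr6, had 1.90 to 2.63 CPM in WT libraries against 1.26 to 2.49 CPM (-0.25 ± 0.45). Ccl27a, which shares near-identical copies and exons with other genes and is uncertain for that reason, had a log2 fold change of -1.21 ± 0.73. Those of Ccl25 and Cx3cl1 were 0.19 ± 0.36 and -0.11 ± 0.69.

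For ligands below the filter, reads are given without a test. Ccl1, the ligand of Ccr8, had 20, 6 and 80 reads in WT and 5, 0 and 0 in SIRPα KO, and Xcl1 (lymphotactin), made by NK cells and T cells, had 11, 6 and 49 against 1, 2 and 2. Both were lower in every SIRPα KO library than in any WT library after scaling. Ccl17, the other ligand of Ccr4, had 68 reads in WT replicate 3 and 0 to 23 elsewhere. Ccl21b, a ligand of Ccr7 with near-identical copies, had 119 and 77 reads in WT replicates 1 and 2, which carry related codes, and at most 5 in the other libraries. Its fractional counts and its copies make it uncertain. Ccl21d had at most 10 reads and Cxcl1 at most 27.

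WT replicate 3 was the highest WT library for 12 of the 17 tested ligands and WT replicate 1 the lowest for 10. Without WT replicate 3 the median log2 fold change of these 17 ligands was 0.79 in place of 0.10.

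Among the receptors, the RNA of Cxcr6 was above that of all others in these libraries. It binds Cxcl16 and marks lymphocytes that stay in tissue. Cxcr6 supplied 65.5% to 73.0% of all receptor reads and stood at 669 ± 90.5 CPM per kb (SD, n = 6). Ccr8, a receptor of type 2 and regulatory lymphocytes, was second at 115 ± 11.7 CPM per kb, and its range overlapped neither that of Cxcr6 nor that of Ccr4. Ccr4 (39.5 ± 9.30), another receptor of type 2 lymphocytes, Ccr2 (29.6 ± 5.59) and Ccr7 (21.9 ± 5.80), which leads cells to lymph nodes, formed a middle group in which neighbours overlapped. Ccr1 (12.1 ± 1.85) and Xcr1 (10.4 ± 1.71) overlapped as well.

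Levels per kilobase of receptors can be set beside those of their ligands in the same libraries, as means over all 6. Cxcl16 was at 0.78 CPM per kb against 669 for its receptor Cxcr6. Ccl1 was at 0.56 CPM per kb against 115 for Ccr8, and Ccl17 and Ccl22 were at 2.07 and 1.27 against 39.5 for Ccr4. Ccl2 and Ccl7 were at 1.54 and 0.93 CPM per kb against 29.6 for Ccr2, and Xcl1 was at 1.46 against 10.4 for Xcr1. Ccl21b was at 5.26 CPM per kb against 21.9 for Ccr7. For other pairs the order was reversed. Ccl6, one of the ligands of Ccr1, was at 35.3 CPM per kb against 12.1 for the receptor. Other ligands of Ccr1 were below it, Ccl5 at 9.55, Ccl3 at 4.98 and Ccl9 at 4.42. Among low receptors, Ccl25 was at 2.55 against 0.18 for Ccr9, and Cxcl10 at 1.08 against 0.51 for Cxcr3. In WT alone, Cxcl10 and Cxcr3 were close, at 1.18 ± 0.41 and 1.01 ± 0.30 CPM per kb, and Cxcr3 had 0 reads in SIRPα KO. Ccl27a was at 0.98 against 0.07 for Ccr10. Exons of Ccl25, Ccr9, Cxcl10, Ccl27a, Cxcl16 and Xcl1 overlap those of other genes, so their levels, and the order within these pairs, are uncertain. Beside 0.73 for Ccr3, Ccl5 was at 9.55 and Ccl24 at 0.69. The ligand with the most RNA in these libraries, Cxcl3, signals through Cxcr2, which had no column in the count table.

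Cxcr6, on chromosome 9 from 123806475 to 123811760, had 1500, 1458 and 1049 CPM in WT and 1204, 1181 and 1266 CPM in SIRPα KO. WT replicate 3 was below every SIRPα KO library and the other WT libraries were above. SIRPα KO differed by -0.13 on the log2 scale (standard error 0.14, edgeR adjusted p = 0.536), and without WT replicate 3 it was -0.27 (adjusted p = 0.0129 from edgeR). Its counts were not whole numbers in any of the 6 libraries, as those of Ccr2 were not, and how such reads were assigned is not given in the sources used here.

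On chromosome 9, Cxcr6 has Ccr9, Xcr1, Ccr1, Ccr3 and Ccr2 nearby. Levels of these neighbours differed widely, from 0 to 70 reads per library for Ccr9 to at least 15845 for Cxcr6. The log2 fold changes of the tested genes named here ran from -0.41 for Ccr2 to -0.13 for Cxcr6, none of them past the threshold.

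Ccr2, which lets cells leave the bone marrow and enter inflamed tissue, had 198, 219 and 162 CPM in WT and 142, 155 and 140 CPM in SIRPα KO. All SIRPα KO libraries were below all WT libraries. Its fold change, -0.41 on the log2 scale with a standard error of 0.14, missed the threshold over all genes (adjusted p = 0.0880 from edgeR, 0.0517 from DESeq2). It was past the threshold without WT replicate 3 (-0.51, adjusted p = 0.00998 from edgeR) and with upper quartile factors (-0.50, 0.0371), and over all alternatives the adjusted p ran from 0.00369 to 0.303. For Ccr1, which binds Ccl3, Ccl5, Ccl6 and Ccl9, the log2 fold change was -0.26 ± 0.17, with WT libraries at 30.6 to 41.6 CPM and SIRPα KO libraries at 29.0 to 33.6 CPM. Xcr1, best known as the Xcl1 receptor of cross-presenting dendritic cells, had 36.6 to 56.3 CPM in WT and 40.8 to 45.6 CPM in SIRPα KO (-0.17 ± 0.19). The 4 dendritic cell markers with a column, Ccl22 among them, summed to 3.77 to 18.1 CPM in WT libraries and 8.50 to 13.5 CPM in SIRPα KO libraries, and Flt3 had 0 reads in each WT library and at most 11 in SIRPα KO. CD11c was in the lineage gate, and the part of dendritic cells in the level of Xcr1 was not tested.

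Ccr4 had 86.3, 118 and 77.2 CPM in WT and 148, 125 and 110 CPM in SIRPα KO, with WT replicate 2 above SIRPα KO replicate 3. Its difference was 0.44 on the log2 scale (standard error 0.19, edgeR adjusted p = 0.156), and without WT replicate 2 it was 0.64 (adjusted p = 0.0433 from edgeR). Ccr8 had 114, 129 and 144 CPM in WT and 152, 129 and 143 CPM in SIRPα KO, and the groups overlapped (0.13 ± 0.13). Ccr7 had 41.2, 44.7 and 63.9 CPM in WT and 29.8, 44.2 and 36.6 CPM in SIRPα KO (-0.44 ± 0.22, adjusted p = 0.217 from edgeR). Only SIRPα KO replicate 2 reached the WT range there.

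The remaining receptors were low in these cells. Ccr3, the eotaxin receptor of eosinophils, had 1.64 to 3.77 CPM in WT and 1.92 to 2.79 CPM in SIRPα KO (log2 fold change -0.19 ± 0.46). The 5 eosinophil markers summed to 1.96 to 15.2 CPM in WT libraries and 4.53 to 28.9 CPM in SIRPα KO libraries. Ear1 and Ear2 were highest in WT replicate 3 (71 and 141 reads), as Ccr3 was, and Epx and Prg2 in SIRPα KO replicate 1 (151 and 145 reads). Their part in the level of Ccr3 was not tested. Cxcr4, the receptor for Cxcl12, had 2 to 21 reads (0.61 ± 0.74). Below the filter, Ccr6, a receptor of type 3 lymphoid cells, had 2, 0 and 16 reads in WT and 0 in each SIRPα KO library. Ccr9, the receptor for Ccl25, had 70 reads in WT replicate 2 and at most 7 elsewhere. Ccr10, which binds Ccl27, had 6 reads in each of 2 libraries and 0 in the other 4, Cxcr5, a receptor of follicular lymphocytes, had 0 to 16, and the atypical receptor Ackr4 had 0 to 22.

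More receptors were past the threshold once fold changes were corrected for transcript length and GC content, 4 in place of 1. Ccr2, whose longest transcript has 5728 bases, then fell by 0.93 on the log2 scale (standard error 0.09, adjusted p = 0.00369 from edgeR), and Xcr1 (4453 bases) fell by 0.56 (adjusted p = 0.0338). Ccr8, with 1175 bases, rose by 0.57 (adjusted p = 0.0257 from edgeR), and Cxcr3 stayed past the threshold (0.0181). Ccl4, with the shortest among tested ligands at 660 bases, went from 0.82 to 1.58 and was not past the threshold in either fit. The ligands called were Ccl2 and Ccl5 in both.

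**Figure D4:**
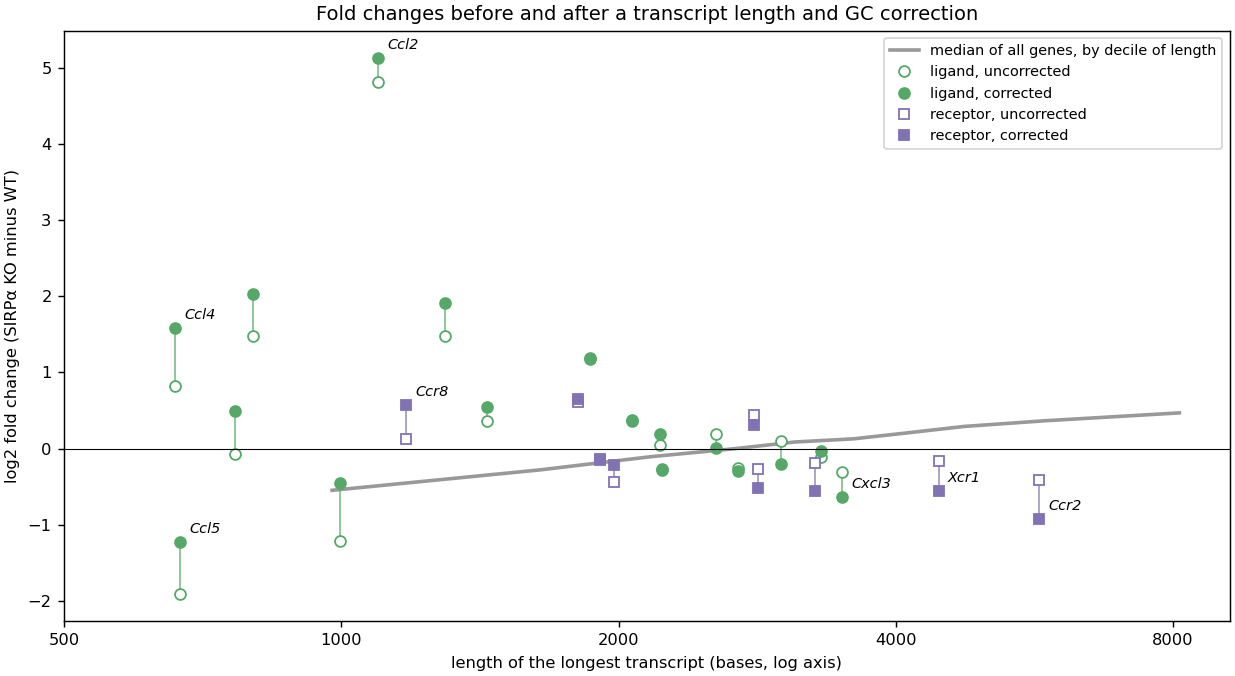
Log2 fold change of SIRPα KO over WT against the length of the longest transcript (log axis) for the tested ligands (green circles) and 9 receptors, Cxcr3 not drawn (purple squares), open before and filled after the correction, with a grey line for the median of all well-expressed genes by decile of length. The grey line climbs from -0.55 to 0.47, and the correction lifts genes with short transcripts such as Ccr8 (0.13 to 0.57) and lowers those with long ones such as Ccr2 (-0.41 to -0.93).

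Downstream of the receptors, a list of 44 genes with a column was examined: G protein subunits, arrestins, receptor kinases, RGS proteins that end G protein signals, effectors of migration, and proteins that process or bind chemokines. Of 41 that passed the filter, 2 rose and 8 fell, 24.4% against 11.7% of all genes, with a median log2 fold change of -0.41. WT and SIRPα KO libraries were fully apart for 23 of these 41 genes (56.1%), against 42.8% of all genes. An average of at least 3 log2 CPM was reached by 34 of the 41, against 9146 of 13623 genes. The list was also chosen with earlier results known, so no excess is read from these shares. The genes past the threshold included G protein subunits, an arrestin, an RGS protein and effectors of migration.

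Gnai2, the main inhibitory G protein α subunit of leukocytes, fell from 725 ± 58.7 to 492 ± 12.6 CPM (SD, 3 libraries per group), a log2 difference of -0.56 (edgeR, adjusted p = 0.0177). Its partner Gnb2 fell by 0.80 on the log2 scale. Gnai3, the close relative of Gnai2, was at 234 ± 60.1 and 349 ± 15.2 CPM, and its log2 fold change of 0.57 was not past the threshold (adjusted p = 0.0832 from edgeR), although its groups did not overlap. Arrb2 (β-arrestin 2), which ends receptor signals and starts internalization, fell from 157 ± 6.40 to 81.5 ± 6.93 CPM (-0.94, adjusted p = 0.00937 from edgeR). Rgs10 fell by 1.41 on the log2 scale. Rac2, a GTPase of leukocyte movement, fell from 709 ± 19.3 to 485 ± 18.8 CPM (-0.55), and Was, which nucleates actin branches, fell by 0.65.

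Pik3r5, the regulatory subunit through which Gβγ activates PI3Kγ, rose from 75.9 ± 4.09 to 162 ± 18.4 CPM (1.09, adjusted p = 0.00776 from edgeR). Plcb2, a phospholipase that also answers to Gβγ, rose from 6.52 ± 2.11 to 19.5 ± 3.57 CPM (1.58, adjusted p = 0.0207 from edgeR). Cd74, a receptor for MIF and the chaperone of MHC class II, fell from 107 ± 34.8 to 42.8 ± 3.96 CPM, and Cklf, a chemokine-like factor, fell by 0.90 on the log2 scale. Cd74 is high in B cells, and 5 B cell markers summed to 193 to 455 CPM in WT and 8.63 to 71.4 CPM in SIRPα KO, with 4 of the 5 past the threshold downward. Ighm and Igkc carried most of that sum. Within each genotype the 2 levels ran in opposite order. Cd74 was at 83.0, 91.0 and 147 CPM in WT replicates 1, 2 and 3, where the sum was 455, 450 and 193 CPM. In SIRPα KO replicates 1, 2 and 3, Cd74 was at 46.8, 38.9 and 42.6 CPM and the sum at 8.63, 71.4 and 68.4 CPM. B220, a B cell protein, was in the lineage gate, and the part of B cells in the fall of Cd74 was not tested.

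Corrected for length and GC content, 12 genes of this list were past the threshold, 3 upward and 9 downward, and the median was -0.56. Gnb2 (adjusted p = 0.0695), Rgs10 (0.0870) and Was (0.123) were then no longer past it in the edgeR test. No gene of the list was past it without any 1 SIRPα KO library, with 14 to 19 at an unadjusted p under 0.05, or with libraries of related code summed, with 20.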

How the data were processed

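Bulk RNA sequencing of 6 libraries was used. The values deposited by the authors are estimated counts, not scaled for library size, from alignment to mm10 and quantification against GENCODE M21. Their submission names Partek 10.0 and STAR 2.7.8, and their methods name other versions of both. The treatment of multiply mapped reads and of strand is not given in the sources used here. No gene has a total under 10, and 57.3% to 61.3% of the values in a library are whole numbers (within 1e-06).

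Counts were rounded, filtered with filterByExpr (minimum count 10, minimum total 15), scaled by TMM and tested for genotype with edgeR 4.0.16 (quasi-likelihood test, R 4.3.3), with Benjamini-Hochberg adjustment over 13623 genes and a threshold of 0.05. The ± after a log2 fold change is its standard error, taken from the F statistic, and the ± after a level is the SD. CPM are counts per 1000000 reads of the scaled library. Alternatives were DESeq2 1.42.0, other scalings, no filter, a replicate block, leaving out each library, summing libraries of related code, and an offset from splines of transcript length and GC content (5 degrees of freedom each, 8930 genes outside the lists, with length known for 99.0% of tested genes). The edgeR test, the DESeq2 test and the length and GC offset were tested on simulated data, and the other alternatives were not. Figures were drawn with matplotlib.

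The genes and lists were chosen with earlier results of these data known. Named with values are members past the threshold, the 6 highest ligands and receptors per kilobase, those with the largest fold changes, and a list of well-known members. The promoters shown, and single libraries or genes singled out, were chosen after their values were seen. Coordinates are those of GENCODE M21, matched for 38 of the 39 genes, and promoters are RefSeq windows of 250 bases, matched for 28. The values of 1 receptor are not reported here, although it is included in the counts and medians.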

Additional observations from a re-analysis of the deposited data

How the results depend on the processing

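The direction of Ccl2, Ccl5 and Cxcr3 was the same under all 13 alternatives. With DESeq2's own test, 3214 genes were past the threshold in place of 1600, with 3 ligands (Ccl2, Ccl5 and Ccl21b) and 0 receptors of 9 that received an adjusted p, 4 receptors having an unadjusted p under 0.05. With upper quartile factors 2 receptors were past it (Cxcr3 and Ccr2), the median of all genes was -0.13 and that of the ligands -0.04. With the length and GC correction 4 receptors were past it. With libraries of related code summed, 10 genes, 0 ligands, 0 receptors and 0 signalling genes were past it in edgeR, with 4 ligands, 2 receptors and 20 signalling genes at an unadjusted p under 0.05, and the ligand median was -0.08. Leaving out each library gave 16 to 2606 genes, 0 to 4 ligands, 0 to 3 receptors and 0 to 16 signalling genes. It gave medians of 0.023 to 0.79 for the ligands and -0.20 to -0.07 for the receptors. Ccl21b (DESeq2, and edgeR without WT replicate 3) and Xcl1 (edgeR without WT replicate 2) are among these counts although neither passed the main filter. They entered through the WT libraries where they were high, and neither was past the threshold in the edgeR fit without a filter, so no difference is read from them. The low counts came from leaving out SIRPα KO replicates 1, 2 and 3 (16, 17 and 17 genes), and the high ones from leaving out WT replicate 3, and the cause was not tested. The alternatives not named here left the counts of members unchanged.

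For libraries of equal replicate number, the correlations of their deviations from the group means were -0.14, 0.18 and 0.03. WT replicate 1 correlated best with SIRPα KO replicate 3 (0.23), and WT replicates 2 and 3 with the SIRPα KO replicate of equal number. With 3 libraries per group such deviations depend on each other, so these values cannot decide whether the numbers pair the libraries. With the replicate number as a block, 1118 genes were past the threshold, with 2 ligands, 1 receptor and 10 signalling genes, and the ligand median was 0.39. Depth limits the low members: 11 of the 39 genes were untested, and calls such as those of Ccl2 and Cxcr3 rest on fewer than 100 reads per library. Both genes passed the filter only through the group where they were high, so the filter had a part in their lack of overlap. In the edgeR fit without a filter the adjusted p was 0.0476 for Ccl2 and 0.0228 for Cxcr3.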
